A study of Mus musculus with 4 samples.

Results

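The 10 genes described here encode the NF-κB transcription factors and their closest regulators, and they were followed in donor-derived KL cells, the Lin- cKit+ Sca-1- bone marrow gate that holds committed myeloid progenitors. They were taken by name: the subunits Nfkb1, Nfkb2, Rel, Rela and Relb, the inhibitors and IκB-like proteins Nfkbia, Nfkbiz, Bcl3 and Tnfaip3, and the kinase Ikbkb. All 10 were among the 12067 genes in the table of counts. The samples were 4 Quant-seq libraries, a method that reads the 3′ end of each transcript, with 2 BcorΔE9-10 and 2 BcorWT libraries. The comparison asked how these genes differed when myeloid progenitors had developed in a recipient without full-length Bcor, which belongs to a variant form of Polycomb repressive complex.

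Every donor carried a floxed Bcor allele, Bcorfl/y. BcorΔE9-10 donors also carried scl-Cre-ERT, a tamoxifen-inducible Cre under a stem cell enhancer of Scl, whereas the BcorWT label names no Cre. Per the methods of the study, controls were given tamoxifen too and donors were treated at 3 to 6 months of age. Excision of the Bcor exons leaves a truncated protein without the domain that binds its Polycomb partner. The paper found this protein at a low level only. Whole bone marrow went into sub-lethally irradiated Ptprca recipients, whose own blood cells carry CD45.1 and can persist, and CD45.2+ donor KL cells were sorted 20 weeks later. The sources used here do not say how many animals stand behind each library, so the p-values measure the spread between these samples, which may be technical.

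NF-κB proteins are held in the cytoplasm by IκB proteins. In the canonical pathway, signals from cytokine and Toll-like receptors activate the IκB kinase, IκBα is degraded, and dimers of Rela, Rel and p50 enter the nucleus, where they also induce the genes of their own inhibitors. In the non-canonical pathway the kinase NIK drives processing of the Nfkb2 product p100 to p52, the partner of Relb. In bone marrow, NF-κB is known for its part in emergency myelopoiesis and in the survival of progenitors.

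Libraries held 3825289.5 to 6253100.5 counts, so that 3 counts stood for 0.489 to 0.876 CPM (counts scaled to a common library size with TMM factors). The gene Gm42418 took 16.3% and 14.3% of counts in the BcorΔE9-10 libraries and 27.9% and 1.43% in the BcorWT libraries, and the NF-κB genes kept their direction without it. Log2 CPM over all genes correlated at 0.947 between the BcorΔE9-10 libraries and 0.893 between the BcorWT libraries, below all 4 pairs across genotypes (0.901 to 0.940). BcorWT replicate 2 stood apart, at 0.893 to 0.902 with each of the other libraries. Bcor itself had 104 and 113 counts in the BcorΔE9-10 libraries and 58 and 79 in the BcorWT libraries, and 3′ counts do not check the loss of internal exons. The cells expressed the myeloid progenitor genes Mpo (4284 to 6888 CPM) and Prtn3 (1993 to 2735 CPM). The neutrophil genes S100a8 and S100a9, which the lineage gate should exclude, were abundant. The gated-out marker list took 4.84% and 10.9% of counts in the BcorΔE9-10 libraries against 5.93% and 8.18% in the BcorWT libraries. Lymphoid genes on that list were present in part: Nkg7 had 437 to 1332 counts, Cd79b 11 to 36 and Ncr1 4 to 13 (named after their values were seen), while Cd79a, Ms4a1, Cd3e, Cd3g, Cd3d and Cd5 had no row in the table used here.

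Several of these genes are textbook targets of NF-κB itself, so the κB matches in their promoters are shown first. RefSeq promoter windows on GRCm38.p6, each of 300 bases from 250 before to 50 after an annotated gene start, were at hand for 6 of the 10 genes (Nfkb2, Rel, Rela, Nfkbia, Tnfaip3 and Bcl3). The 10-base κB consensus was searched on both strands, with overlapping matches allowed. It occurred in the windows of 5 of the 6 genes and in 7 of their 9 windows, against 1480 of 32851 windows (4.51%) and 1388 of 27025 genes (5.14%) over the whole promoter table. The exception was Rela. A looser form, GGGNNNNNCC, was in all 9 windows of these genes but also in 50.8% of all windows. The match nearest to an annotated start is printed for each gene, in 30 bases on the strand of the gene, with the match in capitals. The match reads on that strand in Nfkb2 and on the opposite strand in the other 4:
Nfkb2, chr19:46305695-46305724: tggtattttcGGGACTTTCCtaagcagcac
Rel, chr11:23771041-23771070: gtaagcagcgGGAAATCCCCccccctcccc
Nfkbia, chr12:55492657-55492686: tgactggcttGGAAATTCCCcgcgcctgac
Tnfaip3, chr10:19015403-19015432: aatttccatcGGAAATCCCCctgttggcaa
Bcl3, chr7:19822734-19822763: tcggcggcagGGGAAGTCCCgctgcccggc

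These letters are a description of the promoters and not a measure of binding. The 5 genes with a match had log2 fold changes, BcorΔE9-10 over BcorWT, of 0.58 (Nfkb2), 0.52 (Rel), 0.16 (Nfkbia), 0.42 (Tnfaip3) and 0.17 (Bcl3), and Rela, the gene without one, had -0.33. None of these differences passed the test described next, and a link between a match and the direction of change was not tested.

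No NF-κB gene differed between the genotypes at an adjusted p under 0.05. Genes were tested with edgeR's quasi-likelihood F test over all 12067 genes with Benjamini-Hochberg adjustment, where 0.0166% of genes (2 of 12067) passed, so the test had few calls to give anywhere. Without BcorΔE9-10 replicate 1, BcorΔE9-10 replicate 2, BcorWT replicate 1 or BcorWT replicate 2, it called 6, 34, 596 and 30 genes, and again none of the 10. At an unadjusted p under 0.05, 1 of the 10 passed, the IκB-like gene Nfkbiz, against 4.42% of all genes, and limma-voom and DESeq2 also gave 1 of 10, against 4.27% and 4.19% of all genes. The libraries of the genotypes did not overlap for 4 of the 10 (Rel, Nfkbia and Nfkbiz higher and Rela lower in BcorΔE9-10), against 33.9% of all genes. The 10 genes had a median log2 fold change of 0.29 against -0.03 for all genes, with 7 higher and 3 lower. That median was 0.32, 0.12, 0.015 and 0.17 without BcorΔE9-10 replicate 1, BcorΔE9-10 replicate 2, BcorWT replicate 1 and BcorWT replicate 2. In each of these fits 1 genotype has a single library, which is assumed to vary like the pair of the other genotype.

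**Figure D1:**
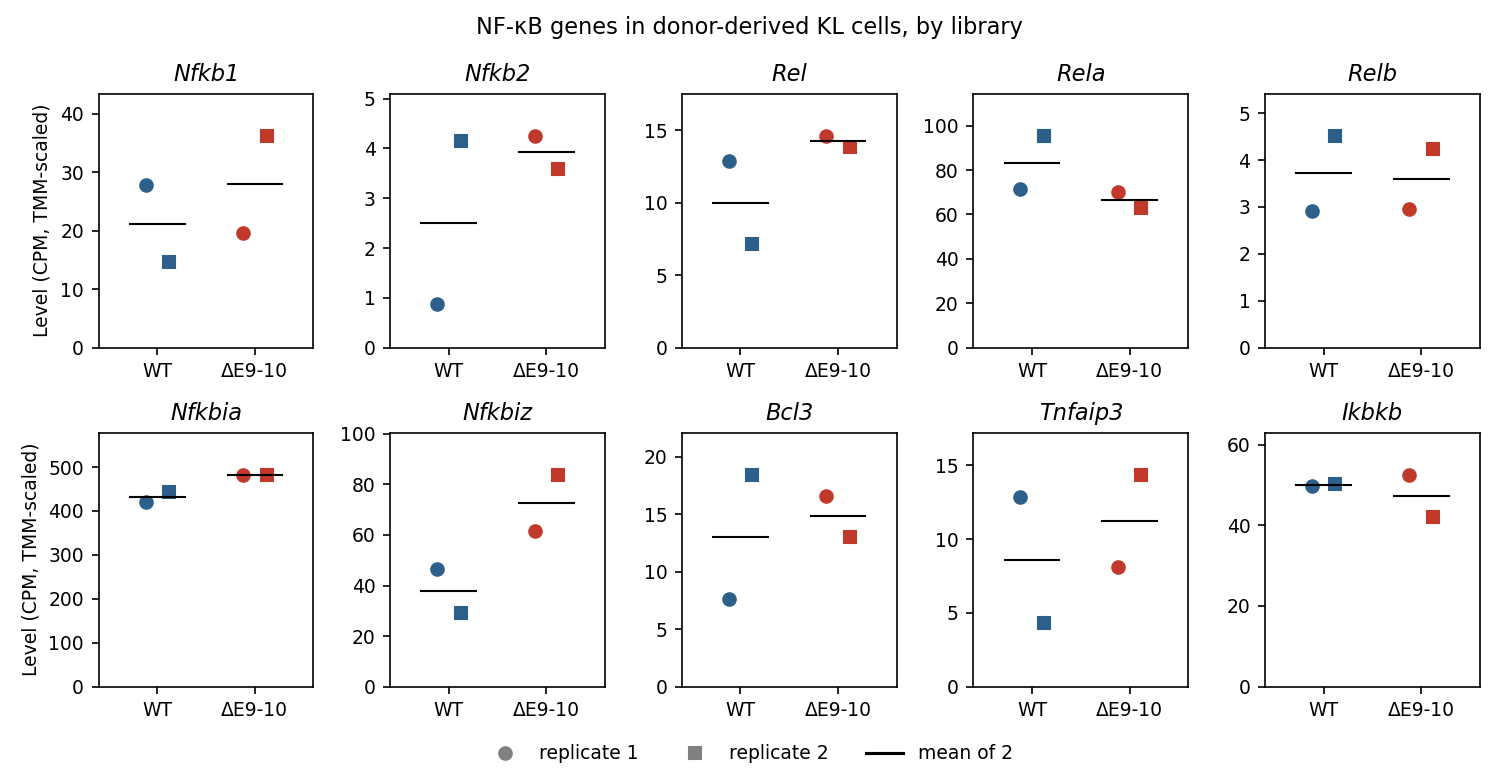
Level of each NF-κB gene in CPM (y axis from 0, a scale of its own in each panel) in the BcorWT (blue) and BcorΔE9-10 (red) libraries. Circles are replicate 1, squares replicate 2 and lines the mean of 2; the genotypes are apart for Rel, Rela, Nfkbia and Nfkbiz and overlap for the other 6 genes.

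Among the subunits, Rela (p65) carries the transactivation domain of the classical heterodimer. It lies on chr19:5637483-5648130 (+ strand, GRCm38) and had 379 and 386 counts in the BcorΔE9-10 libraries and 244 and 507 in the BcorWT libraries, or 70.0 and 62.9 against 71.3 and 95.4 CPM. Both BcorΔE9-10 libraries were below both BcorWT libraries, but the nearest pair, 70.0 and 71.3 CPM, was almost level. Its log2 fold change was -0.33 (SE 0.32, 95% interval -1.07 to 0.41, edgeR adjusted p = 0.945). As a fold, the interval ran from 0.477 to 1.33. Without BcorWT replicate 2 the log2 fold change of Rela was -0.10, and without BcorWT replicate 1 it was -0.53.

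Rel encodes c-Rel, a subunit best known from lymphoid and myeloid cells (chr11:23736847-23770970, - strand). Its counts were 79 and 85 in BcorΔE9-10 and 44 and 38 in BcorWT, or 14.6 and 13.9 against 12.8 and 7.15 CPM. The BcorΔE9-10 libraries lay close together and above both BcorWT libraries, of which replicate 2 was the low one. The edgeR fit gave Rel a log2 fold change of 0.52 (SE 0.45, 95% interval -0.51 to 1.56, adjusted p = 0.945). It was 0.15 without BcorWT replicate 2 and 0.99 without BcorWT replicate 1.

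Nfkb1 encodes the p105 precursor of p50, the usual partner of Rela (chr3:135584655-135691547, - strand). Counts were 106 and 222 in BcorΔE9-10 and 95 and 78 in BcorWT, or 19.6 and 36.2 against 27.7 and 14.7 CPM. The genotypes overlapped: BcorΔE9-10 replicate 2 was the highest library and BcorWT replicate 2 the lowest, with the other two between them. Its log2 fold change of 0.41 (SE 0.45, 95% interval -0.64 to 1.45, edgeR adjusted p = 0.951) went to -0.10 without BcorΔE9-10 replicate 2. The transcript does not tell p105 from p50, and this holds likewise for p100 and p52 from Nfkb2.

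The non-canonical pair had low counts. Nfkb2 (chr19:46304320-46312385, + strand) had 23 and 22 counts in BcorΔE9-10 and 3 and 22 in BcorWT, or 4.25 and 3.59 against 0.876 and 4.14 CPM. A single library, BcorWT replicate 1, was low, at 3 counts, and the other 3 were nearly equal. The log2 fold change was 0.58 (SE 0.79, 95% interval -1.24 to 2.40, edgeR adjusted p = 0.959), and it was -0.09 without that library and 2.13 without BcorWT replicate 2. The annotated 3′ end of Nfkb2 overlaps the gene Psd on the opposite strand over chr19:46312087-46312385. Reads of a 3′ method are expected near that end, but their positions were not examined here. Psd had 263 and 208 counts in BcorΔE9-10 and 200 and 308 in BcorWT, and since the sources used here do not say whether counting used the strand, the Nfkb2 counts are uncertain.

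Relb, the partner of p52, lies on chr7:19606217-19629438 (- strand). It had 16 and 26 counts in BcorΔE9-10 and 10 and 24 in BcorWT, or 2.96 and 4.24 against 2.92 and 4.52 CPM. In both genotypes replicate 2 was above replicate 1, and the genotypes overlapped. For Relb, edgeR gave a log2 fold change of -0.06 (SE 0.63, 95% interval -1.51 to 1.39, adjusted p = 0.994), an interval that leaves room for a doubling or a halving. Over the 5 subunits, 3 were higher and 2 lower in BcorΔE9-10, and their summed level was 111 and 121 CPM in the BcorΔE9-10 libraries and 116 and 126 CPM in the BcorWT libraries, which overlapped.

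Nfkbiz had the largest fold change of the 10 genes. It encodes IκBζ, an atypical nuclear IκB protein that is induced by Toll-like receptor and IL-1 signals and acts as a co-activator on secondary response genes. On chr16:55811375-55838899 (- strand), it had 333 and 514 counts in BcorΔE9-10 and 160 and 154 in BcorWT. Levels were 61.5 and 83.8 CPM (72.7 ± 15.7, SD, n = 2) against 46.7 and 29.0 CPM (37.9 ± 12.5, SD, n = 2).

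All BcorΔE9-10 values of Nfkbiz were above all BcorWT values. Among the 10 genes, only for Nfkbiz and Nfkbia did the genotype difference exceed the difference between replicates in both genotypes. The share of all genes for which this held was not counted. For 69.6% of all genes the difference between the BcorWT libraries exceeded that between the genotype means. The log2 fold change of Nfkbiz was 0.95 (SE 0.37), a fold of 1.93 with a 95% interval of 1.07 to 3.47. The unadjusted p of the edgeR fit was 0.0332 and the adjusted p 0.945. Without BcorΔE9-10 replicate 1 the log2 fold change was higher, at 1.15, with an edgeR unadjusted p of 0.0652. It was 0.71 without BcorΔE9-10 replicate 2 (edgeR unadjusted p = 0.247) and 0.64 without BcorWT replicate 2 (edgeR unadjusted p = 0.0705). Without BcorWT replicate 1 it was 1.32 (edgeR unadjusted p = 0.00265, adjusted p = 0.0510), in a fit whose spread came from the BcorΔE9-10 pair alone and where 25% of all genes had an unadjusted p under 0.05. The direction held in all 12 alternatives, with log2 fold changes from 0.64 to 1.32.

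Nfkbia encodes IκBα, the classical inhibitor that is itself induced by NF-κB and closes the negative feedback loop (chr12:55489410-55492647, - strand). It had 2602 and 2958 counts in BcorΔE9-10 and 1440 and 2355 in BcorWT, or 481 and 482 against 421 and 443 CPM. The BcorΔE9-10 libraries were almost identical and above both BcorWT libraries, by a small margin. The log2 fold change was 0.16 (SE 0.31, 95% interval -0.57 to 0.88, edgeR adjusted p = 0.968). This was the most stable estimate of the 10 genes, ranging from 0.12 to 0.19 when each library was left out in turn. As a fold, the interval from 0.673 to 1.85 did not reach a doubling.

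Tnfaip3 encodes A20, a ubiquitin-editing enzyme that shuts off signalling upstream of the IκB kinase (chr10:19000910-19015657, - strand). Counts were 44 and 88 in BcorΔE9-10 and 44 and 23 in BcorWT, or 8.13 and 14.3 against 12.8 and 4.33 CPM. As with Nfkb1, BcorΔE9-10 replicate 2 was the highest library and BcorWT replicate 2 the lowest. The estimate for Tnfaip3, a log2 fold change of 0.42 (SE 0.60, 95% interval -0.98 to 1.81, edgeR adjusted p = 0.961), took values from -0.19 to 1.37 as single libraries were left out.

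Bcl3, a nuclear IκB protein that binds p50 and p52 homodimers, lies on chr7:19808462-19822770 (- strand). It had 90 and 80 counts in BcorΔE9-10 and 26 and 98 in BcorWT, or 16.6 and 13.04 against 7.59 and 18.4 CPM. The BcorWT libraries held both the lowest and the highest value. The log2 fold change was 0.17 (SE 0.49, 95% interval -0.97 to 1.31, edgeR adjusted p = 0.976) and became -0.32 without BcorWT replicate 1. An antisense transcript inside the gene, Gm16174, had 11 to 24 counts a library, and the same limit on strand applies.

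The summed level of these 4 inhibitors and IκB-like genes was 567 and 593 CPM in the BcorΔE9-10 libraries and 488 and 495 CPM in the BcorWT libraries. The sums did not overlap, and Nfkbia made up most of each. In bulk samples, fewer cells of a type and less RNA per cell cannot be told apart, so none of these levels says which cells carried the transcripts.

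Ikbkb encodes IKKβ, the kinase that marks IκBα for degradation (chr8:22659212-22706589, - strand). It had 284 and 258 counts in BcorΔE9-10 and 170 and 267 in BcorWT, or 52.5 and 42.1 against 49.6 and 50.2 CPM. The BcorΔE9-10 libraries lay on either side of the BcorWT libraries. The log2 fold change was -0.08 (SE 0.31, 95% interval -0.80 to 0.64, edgeR adjusted p = 0.986), and the fold interval from 0.575 to 1.56 did not reach a doubling or a halving.

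**Figure D2:**
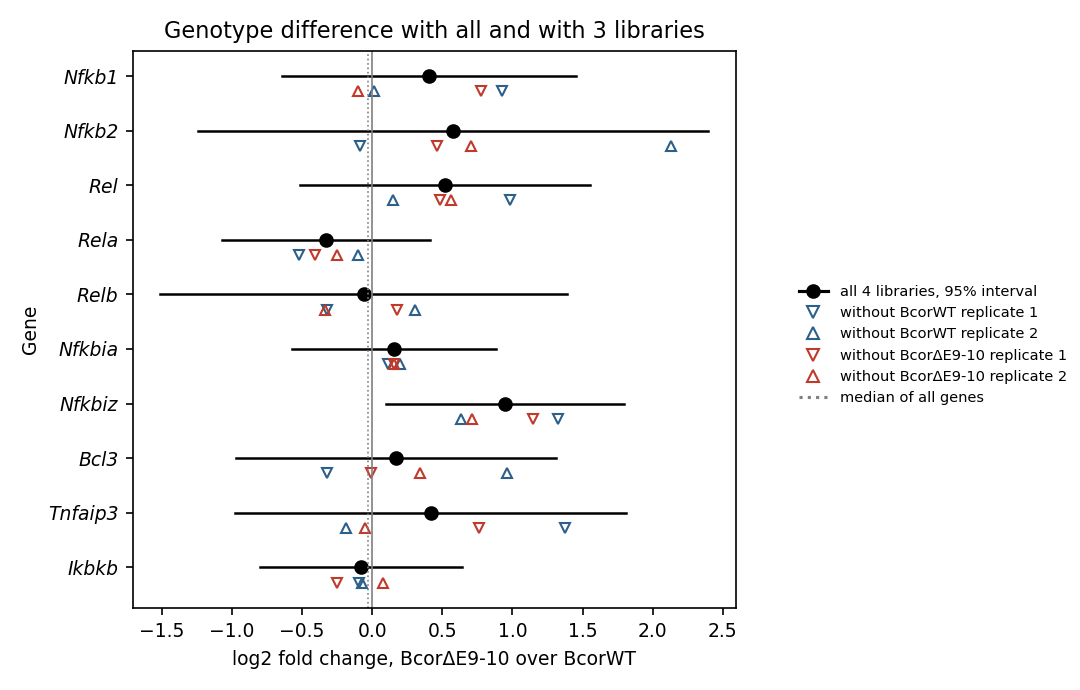
Log2 fold change of each NF-κB gene, BcorΔE9-10 over BcorWT (x axis), from the edgeR fit on 4 libraries (black points, bars the 95% interval) and with each library left out (triangles); the dotted line is the median of all genes, -0.03. The interval of Nfkbiz alone stays above 0, and the triangles of Nfkb1, Nfkb2, Relb, Bcl3, Tnfaip3 and Ikbkb lie on both sides of 0.

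The NF-κB genes shared the wide spread of the BcorWT libraries that all genes showed. The difference between the BcorWT libraries exceeded that between the genotype means for 7 of the 10 genes, against 69.6% of all genes. It exceeded the difference between the BcorΔE9-10 libraries for 9 of the 10, all but Ikbkb, against 67.6% of all genes. The median absolute difference on the log2 CPM scale was 0.747 between BcorWT libraries, 0.329 between BcorΔE9-10 libraries and 0.352 between genotype means for the 10 genes, and 0.568, 0.305 and 0.320 for all genes.

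BcorWT replicate 2 had the lowest level of the 4 libraries for Nfkb1, Rel, Nfkbiz and Tnfaip3, and BcorWT replicate 1 for Nfkb2, Relb, Nfkbia and Bcl3. A BcorWT library was thus the lowest for 8 of the 10 genes, against 57.7% of all genes. BcorWT replicate 2 was at the same time the highest for Rela, Relb and Bcl3. A BcorWT library was the highest for these 3 of the 10 alone, against 59.1% of all genes. Without BcorWT replicate 1, Rel, Nfkbiz and Tnfaip3 had an unadjusted p under 0.05, 3 of the 10 genes against 25% of all genes in that fit. Without BcorWT replicate 2 it was Nfkb2 alone, against 5.71% of all genes. Without BcorΔE9-10 replicate 1 or 2 none of the 10 passed, against 2.01% and 3.1% of all genes.

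**Figure D3:**
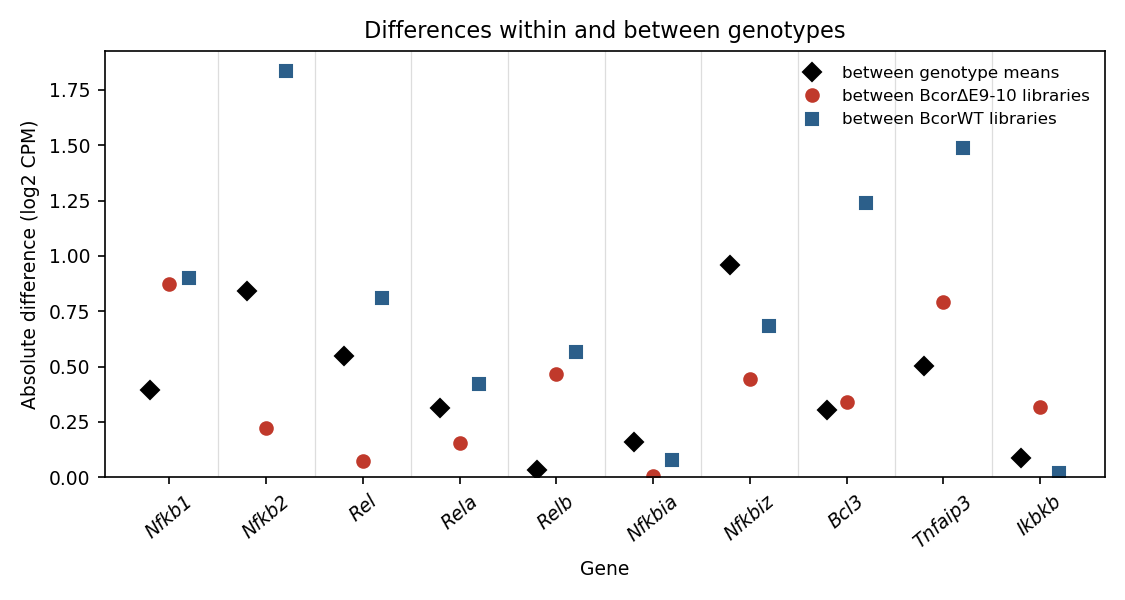
Absolute difference in log2 CPM (y axis) between genotype means (black), between the 2 BcorΔE9-10 libraries (red) and between the 2 BcorWT libraries (blue) for each NF-κB gene. The black point is the highest only for Nfkbia and Nfkbiz, an order whose share over all genes was not counted. The blue point is the highest for 7 genes and the red point for Ikbkb.

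The rest of the pathway was described from lists of 98 genes, of which 76 were in the table. None passed at an edgeR adjusted p under 0.05, 1 had an unadjusted p under 0.05, against 4.42% of all genes, and 33 were higher and 43 lower in BcorΔE9-10, against 47.7% of all genes higher. The median log2 fold change was -0.05. Among the other 4 IκB genes 2 were higher and 2 lower. Nfkbid, which encodes a second nuclear IκB protein (IκBNS), had 14.0 and 14.8 CPM in BcorΔE9-10 against 18.4 and 34.6 CPM in BcorWT, the opposite order to Nfkbiz (log2 fold change -0.88, SE 0.41, edgeR adjusted p = 0.945). Nfkbib, encoding IκBβ, had 8.13 and 9.29 against 2.63 and 8.84 CPM.

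Among the 9 other kinases and cofactors of the IκB kinase step, 4 were higher and 5 lower (median -0.06). Tab2, an adaptor of the kinase TAK1, had 100.7 and 120.0 CPM in BcorΔE9-10 and 100.5 and 59.7 CPM in BcorWT, with BcorWT replicate 2 the low library. Map3k7, which encodes TAK1, had 61.7 and 54.3 against 53.4 and 68.3 CPM, with overlap. Of 18 adaptors and ubiquitin ligases, 7 were higher and 11 lower (median -0.09). Irak1, a kinase of the Toll-like and IL-1 receptor pathway, and Rbck1, a part of the linear ubiquitin ligase, both overlapped between genotypes, with log2 fold changes of -0.13 and -0.43.

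Of 13 deubiquitinases and negative regulators 7 were higher and 6 lower (median 0.07), among them Tax1bp1, an A20 cofactor (0.43), and Cyld (0.07). Of 8 receptors 2 were higher and 6 lower (median -0.27). Tnfrsf1a, the main TNF receptor, had 81.0 and 89.7 CPM in BcorΔE9-10 against 83.2 and 135 CPM in BcorWT, and Ltbr, a receptor that feeds the non-canonical pathway, 56.7 and 58.4 against 68.0 and 61.7 CPM. All 4 ligands in the table had a value below 0 (median -0.45), among them Tnf (-0.46) and Ltb (-0.44), each with overlapping genotypes.

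Of 30 listed target genes that NF-κB induces, 22 were in the table, with 12 higher and 10 lower and a median log2 fold change of 0.03. The adhesion molecule Vcam1 (0.07) and the early response gene Ier3 (0.00), with the most counts on the list, overlapped between genotypes. The chemokine Ccl5 was the pathway gene with an unadjusted p under 0.05. It had 8 and 17 counts in BcorΔE9-10 and 24 and 46 in BcorWT, a log2 fold change of -1.87 (SE 0.60, edgeR unadjusted p = 0.0152, adjusted p = 0.945). Ccl5 was thus lower in both BcorΔE9-10 libraries, while Nfkbiz and Nfkbia were higher.

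**Figure D4:**
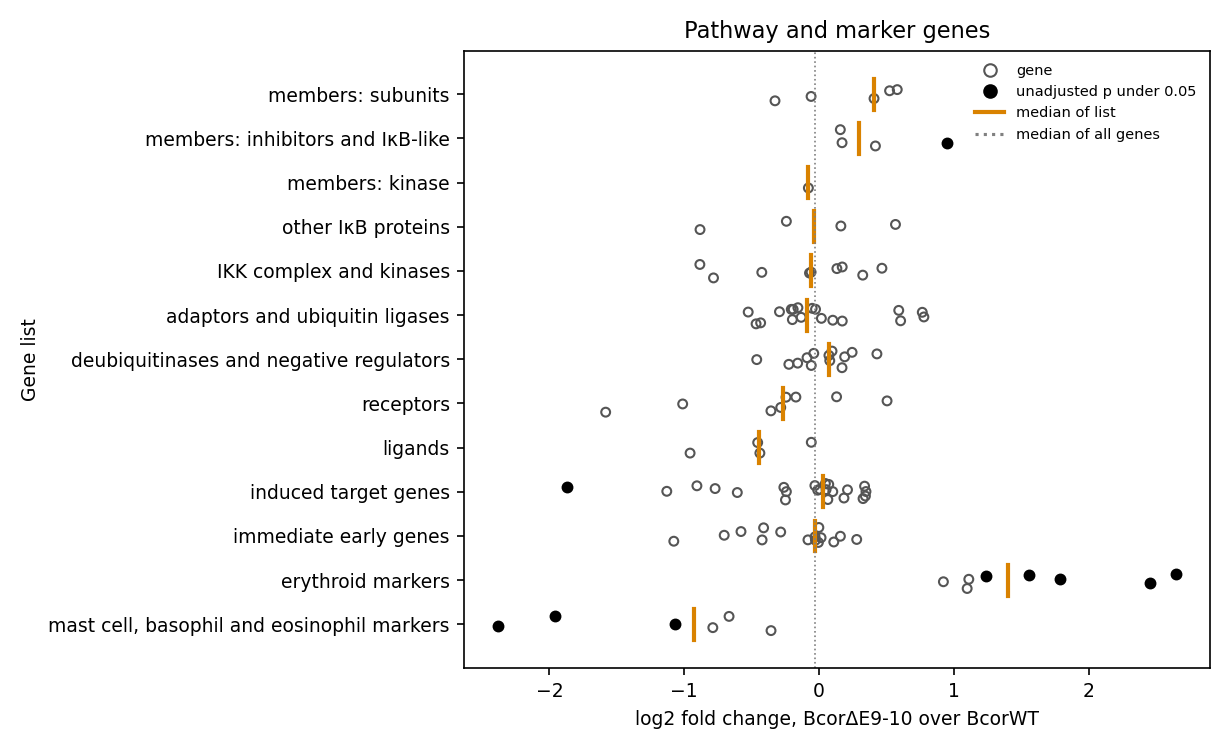
Log2 fold change, BcorΔE9-10 over BcorWT (x axis), of each gene in the NF-κB lists, the immediate early list and 2 marker lists (y axis, 1 list a line; vertical position within a line has no meaning). Filled points have an unadjusted p under 0.05 and orange bars are list medians; the medians of the NF-κB lists run from -0.45 (ligands) to 0.41 (subunits) around that of all genes (dotted, -0.03), with Nfkbiz and Ccl5 as the filled points among them, whereas the erythroid list lies to the right and the mast cell, basophil and eosinophil list to the left.

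Other values also lay apart between the genotypes. Like Nfkbiz, none of the markers in this paragraph passed at an edgeR adjusted p under 0.05. The lowest edgeR adjusted p was 0.664 (erythroid), 0.419 (mast cell, basophil and eosinophil) and 0.945 (megakaryocyte). All 8 erythroid markers in the table (of 10 listed) were higher in BcorΔE9-10 with no overlap, against 33.9% of all genes without overlap in either direction. Of these 8, 5 had an unadjusted p under 0.05, against 4.42% of all genes. Their sum was 136 to 158 CPM in BcorΔE9-10 against 42.9 to 57.2 CPM in BcorWT. The list includes the carbonic anhydrases Car1 and Car2 and the globin gene Hba-a1. The erythroid factor Klf1 had 24 and 17 counts against 1 and 4. All 6 mast cell, basophil and eosinophil markers in the table (of 8) were lower, among them Mcpt8, Prg2, Epx and Cpa3. Of these 6, 5 did not overlap between genotypes, against 33.9% of all genes. An unadjusted p under 0.05 was found for 3 of the 6, against 4.42% of all genes. Their sum was 178 to 233 CPM in BcorΔE9-10 against 421 to 445 CPM in BcorWT. The 4 megakaryocyte markers in the table (of 6), among them Pf4, Itga2b and Gp1bb, had values below 0. Of these 4, Pf4 alone had an unadjusted p under 0.05 (log2 fold change -0.98, edgeR unadjusted p = 0.0263), against 4.42% of all genes. It alone did not overlap between genotypes, against 33.9% of all genes. The 4 markers summed to 108 and 141 CPM in BcorΔE9-10 against 110 and 266 CPM in BcorWT. The marker lists were chosen with earlier results of these data known, so the counts above describe them and test nothing. The part of all these markers in the values of the NF-κB genes was not tested.

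Over 7 of 8 listed monocyte and macrophage markers the sum was 1006 and 2433 CPM in BcorΔE9-10 and 1228 and 2517 CPM in BcorWT, mostly counts of Lyz2, while F13a1 had 51.3 to 62.9 CPM in all libraries. In that sum replicate 2 was the higher in both genotypes, as it was for Relb. Of the 7 genes themselves 3 did not overlap between genotypes, 1 higher and 2 lower in BcorΔE9-10, against 33.9% of all genes, and none had an unadjusted p under 0.05. The 15 immediate early genes, which respond to cell handling as Nfkbiz, Nfkbia and Tnfaip3 can, summed to 5721 and 4956 CPM in BcorΔE9-10 and 6763 and 4865 CPM in BcorWT. That sum, to which Jun and Klf6 gave the most counts, was highest in BcorWT replicate 1 and lowest in BcorWT replicate 2. Within BcorWT this was the order of Nfkbiz and Tnfaip3 but not of Nfkbia (421 and 443 CPM). Within BcorΔE9-10 the sum ran the other way from Nfkbiz and Tnfaip3, with replicate 1 above replicate 2. The genotypes overlapped and its list had a median log2 fold change of -0.03, with 4 genes higher and 11 lower. The genotypes did not overlap for 4 of the 15, all lower in BcorΔE9-10, against 33.9% of all genes in either direction. Its part in these values was not tested.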

How the data were processed

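Donor-derived KL cells of 2 BcorΔE9-10 and 2 BcorWT transplants were profiled by Quant-seq. Per the methods, the authors used cutadapt for trimming, HISAT2 for alignment to mm10 and featureCounts for the assignment of reads to genes. The deposited values are raw counts. In 2 of the 4 libraries 1 gene, Gm4430, had a value that was not whole, so these deposited columns were taken as estimated counts and rounded. How genes were filtered before deposit and whether the strand was used are not given in the sources used here.

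Members and gene lists were chosen with earlier results of these data known. Counts were scaled by TMM (edgeR 4.0.16, R 4.3.3), filterByExpr removed 0 genes, and 12067 genes were tested with edgeR's quasi-likelihood F test (prior count 0.125) on genotype with Benjamini-Hochberg adjustment. SE came from the F statistic and intervals are at 95%. The floor of 3 counts covers counting error only. Counts were not divided by transcript length, so a higher CPM marks more counts of a gene and not a higher level than another gene. Alternatives were limma-voom (limma 3.58.1), DESeq2 1.42.0, other scaling, filters and prior counts, omission of Gm42418, the replicate block and omission of each library. The fit was tested on simulated data. Positions come from GENCODE annotation of GRCm38, the build also named mm10. Figures used pandas 2.3.3 and matplotlib 3.10.9 in Python 3.11.15.

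Named genes were every member, Bcor, and from each list the 2 with the highest mean CPM and up to 3 with the smallest unadjusted p under 0.05. Nkg7, Cd79b, Ncr1, the genes without a row and those overlapping a member were named outside this rule.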

Additional observations from a re-analysis of the deposited data

How the results depend on the processing

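With 2 libraries a genotype, single libraries set most of the estimates. None of the 10 NF-κB genes passed at an adjusted p under 0.05 in any of the 12 alternatives. The number of genes called over the whole table, 2 in edgeR, was 5 with at least 10 counts in every library, 4 in limma-voom, 43 in DESeq2 and 14 with the replicate block, and 6 to 596 when each library was left out in turn. Deviations of same-numbered libraries from their genotype means correlated at -0.09 over all genes. With 2 libraries a genotype this is a single value, which cannot settle whether the replicate numbers pair the samples. Under the replicate block Nfkbiz was again the 1 member with an edgeR unadjusted p under 0.05. That count of members was 0 to 3 when libraries were left out, where 2.01% to 25% of all genes passed, and 1 in the other 8 alternatives, where 3.85% to 4.7% passed. The median log2 fold change of the 10 genes, 0.29, was 0.17 with at least 10 counts in every library, where Nfkb2 was dropped and 9 genes remained, and 0.015 to 0.32 when libraries were left out. The signs of the members held in all alternatives but those that left out a library. Without BcorΔE9-10 replicate 1, Relb was 0.18 and Bcl3 -0.01. Without BcorΔE9-10 replicate 2, Nfkb1 was -0.10, Tnfaip3 -0.05 and Ikbkb 0.075. Without BcorWT replicate 1, Nfkb2 was -0.085 and Bcl3 -0.32. Without BcorWT replicate 2, Relb was 0.30 and Tnfaip3 -0.19. Over the omissions of each library, Nfkb1 ranged from -0.10 to 0.92, Nfkb2 from -0.085 to 2.13, Relb from -0.34 to 0.30, Bcl3 from -0.32 to 0.96, Tnfaip3 from -0.19 to 1.37 and Ikbkb from -0.25 to 0.075, while Rel (0.15 to 0.99), Rela (-0.53 to -0.10), Nfkbia (0.12 to 0.19) and Nfkbiz (0.64 to 1.32) kept their sign throughout. The cause of these changes was not tested. Depth limits Nfkb2 and Relb most, with 3 to 26 counts a library.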
